A study of Mus musculus with 6 samples.

Results

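The genes described here build the meiotic chromosome and carry out meiotic recombination: subunits of the synaptonemal complex, HORMA-domain axis proteins, cohesins, the factors that make and repair programmed DNA breaks, crossover factors, and a few regulators that act in spermatocytes. They were 44 genes, listed by symbol, out of 34844 features distinguished by gene name on a mouse expression array, and each was read from its probe of highest mean signal. All 44 had a probe, and all 44 were well above background on all 6 arrays, so none was lost to a filter on dim probes. For 33 genes there was 1 probe, for 10 there were 2, and for 1 there were 3.

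The arrays compared 3 testes of AROM+ mice, transgenic mice that overexpress aromatase, with 3 testes of WT mice. Every animal was 5 months old and on the C57BL/6 background, and each array held total RNA of a single whole testis labelled with Cy3. The labels do not state the promoter or the cell type that drives the transgene, nor whether 2 testes of a group came from 1 animal, so p-values measure the spread between these samples. The mouse aromatase gene, Cyp19a1, was not called different (-0.30 ± 0.18 on the log2 scale, limma adjusted p = 0.217); its probe may not detect the transgene, whose sequence the labels do not give, and so does not check the genotype. In a whole testis, fewer cells of a type and less RNA per cell cannot be told apart.

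In a spermatocyte entering meiosis, sister chromatids are held by cohesin and folded along an axis, SPO11 cuts the DNA, and the cut ends are resected, coated with strand-exchange proteins and paired with the homologous chromosome. The synaptonemal complex then zips the homologues together, and a few of the repair intermediates mature into crossovers that hold the homologues until the first division. In the male mouse, loss of many of these proteins arrests spermatocytes in prophase.

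The probes below are the readouts behind the largest falls and behind the one gene with a probe called higher, Msh5, and are printed 5′ to 3′ with mm9 coordinates from the array files. The Ccna1 probe and the brighter Msh5 probe span an intron in the genome, so their coordinates cover more than the 60 bases of the probe.
Spo11 probe, chr2:172817551-172817610: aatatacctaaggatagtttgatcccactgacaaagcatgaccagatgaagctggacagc
Ccna1 probe, chr3:54851197-54852341: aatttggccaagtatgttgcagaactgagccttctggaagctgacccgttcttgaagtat
Boll probe, chr1:55356953-55357012: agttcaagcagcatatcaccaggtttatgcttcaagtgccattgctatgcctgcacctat
Msh5 brighter probe, chr17:35165774-35166176: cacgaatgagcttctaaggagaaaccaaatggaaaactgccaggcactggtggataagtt
Msh5 dimmer probe, chr17:35180982-35181041: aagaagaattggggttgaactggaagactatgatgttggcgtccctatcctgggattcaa

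Levels are log2 values relative to the 75th percentile of each array's signals (0 is that percentile), and a difference is the AROM+ mean minus the WT mean with its standard error. A gene was called when limma's moderated test, adjusted by the Benjamini-Hochberg method over all 28917 features tested, gave an adjusted p under 0.05.

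Of the 44 meiotic genes, 19 fell in AROM+ testes (43.2%), none was called higher and 25 were not called. Over all features tested 31.4% were called lower and 14.5% higher, and among the 19055 features with a RefSeq symbol 31.1% were lower and 18.9% higher. The median difference of the meiotic genes was -0.26, against -0.19 for all features. At an unadjusted limma p under 0.05, 21 meiotic genes were lower and 1, Cpeb1, was higher, against 38.1% and 17.0% of all features. Other settings of the same test called at most 1 gene higher. For 23 of the 44 genes (52.3%) every AROM+ array lay below every WT array, against 41.1% of all features. The reverse held for 1 gene, again Cpeb1, against 17.9% of all features.

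**Figure D1:**
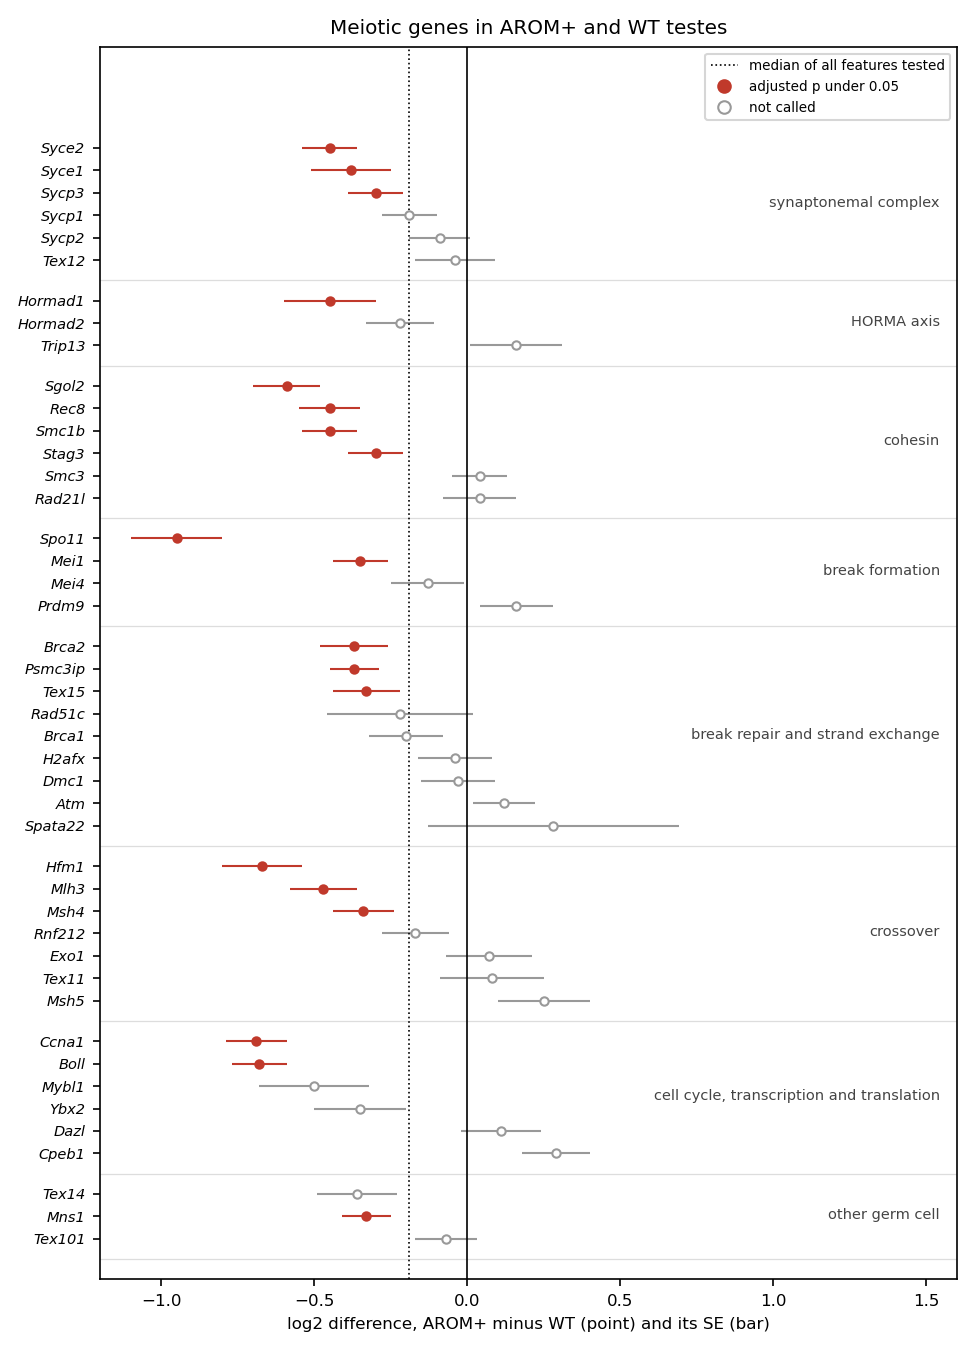
Each point is the log2 difference of 1 meiotic gene, AROM+ minus WT, with its standard error as a bar, for 3 AROM+ and 3 WT arrays. Genes are grouped by role, filled points are the 19 called lower, and the dotted line is the median of all features at -0.19; the points run from -0.95 for Spo11 to 0.29 for Cpeb1.

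The share called lower went with probe signal. Of the 30 meiotic genes whose mean signal lay above the 75th percentile 16 fell (53.3%), against 39.5% of all 10946 such features. Of the 14 genes below it 3 fell (21.4%), against 26.4% of 17971 features. The median level of the 44 genes was 0.48, 0.63 and 0.67 on AROM+ arrays 1, 2 and 3, against 0.90, 0.86 and 0.98 on WT arrays 1, 2 and 3. Within the AROM+ group, replicate 1 had the lowest value for 35 of the 44 genes and replicate 3 the highest for 33. The median of all features was -1.06, -1.1 and -1.07 on AROM+ arrays 1, 2 and 3. The order of the arrays was not counted over all features.

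Among the break-formation genes, Spo11, which encodes the enzyme that cuts DNA to start recombination, had the largest fall of the 44. Its level was 1.13, 1.14 and 0.67 on the AROM+ arrays, against 1.87, 1.87 and 2.06 on the WT arrays. The groups did not overlap, and the signal in AROM+ testes was 51.7% of that in WT testes (difference -0.95 ± 0.15 SE, 95% interval -1.31 to -0.60, limma adjusted p = 0.00556). Mei1, also needed to form breaks in mouse spermatocytes, fell by less (-0.35 ± 0.09, limma adjusted p = 0.023), and lost its call when any 1 of 4 arrays was left out (AROM+ 1 or 2, WT 1 or 3; adjusted p 0.0625 to 0.0839). Mei4, a partner of the cutting machinery, was not called (-0.13 ± 0.12), and its second probe was not well above background on any array. Prdm9, the histone methyltransferase that places the breaks, had a difference of 0.16 ± 0.12 and was not called, and its second probe gave 0.00 ± 0.14.

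Of the 6 cohesin genes 4 fell (66.7%), against 31.4% of all features. Sgol2, the shugoshin that protects centromeric cohesin at the first division, was at -0.58, -0.41 and -0.56 on the AROM+ arrays, against 0.03, -0.03 and 0.23 on the WT arrays. No AROM+ value reached the WT range (-0.59 ± 0.11 SE, limma adjusted p = 0.00752). Rec8, the meiotic kleisin that closes the cohesin ring, was at 2.03, 2.02 and 2.14 on the AROM+ arrays, against 2.66, 2.42 and 2.46 on the WT arrays. Its groups were also separate (-0.45 ± 0.10 SE, limma adjusted p = 0.0135). The Rec8 call was lost with quantile normalization (limma adjusted p = 0.0805). Smc1b, the meiosis-specific SMC subunit, fell by the same amount (-0.45 ± 0.09, limma adjusted p = 0.00945). Stag3, the meiotic subunit that binds the kleisin, fell by 0.30 on the log2 scale (limma adjusted p = 0.0276). Its call was lost when any 1 array but AROM+ 2 was left out (adjusted p 0.0521 to 0.0933), and with quantile normalization (-0.13, limma adjusted p = 0.24). Smc3, which meiotic and mitotic cohesin share, and Rad21l, a second meiotic kleisin, each had a difference of 0.04 and were not called; their 95% intervals were -0.19 to 0.26 for Smc3 and -0.24 to 0.33 for Rad21l.

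In a wider list of meiosis genes, 9 encode mitotic cohesin subunits or cohesin regulators. Of these 2 were higher (22.2%), 2 fell (22.2%) and 5 were not called. Over all features 14.5% were called higher and 31.4% lower. Smc1a, the somatic counterpart of Smc1b, was at -1.02, -1.05 and -0.86 on the AROM+ arrays, against -1.75, -1.63 and -1.77 on the WT arrays, and was higher in AROM+ testes (0.74 ± 0.10, limma adjusted p = 0.0041). Stag2, a somatic counterpart of Stag3, was at -0.92, -1.05 and -0.91 on the AROM+ arrays, against -1.78, -1.56 and -1.87 on the WT arrays (0.77 ± 0.11, limma adjusted p = 0.00487). Both probes lie on chromosome X, and both genes were called higher under all 19 other settings. Rad21, the mitotic kleisin, was not called (0.31 ± 0.13, limma adjusted p = 0.0858), and neither was Stag1 (-0.11 ± 0.09), whose AROM+ values all lay below its WT values and whose second probe gave 0.25 ± 0.12. The genes that fell were Nipbl, which loads cohesin onto DNA (-0.51 ± 0.11, limma adjusted p = 0.0117), and Pds5a, a regulator bound to cohesin (-0.29 ± 0.09, limma adjusted p = 0.0333). Pds5a lost its call when any 1 array was left out (adjusted p 0.0564 to 0.0881). Of the somatic cell markers given below, 7 of 8 macrophage and 7 of 8 endothelial markers were also higher, with 1 lower in each list, and their part in the values of Smc1a and Stag2 was not tested.

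**Figure D2:**
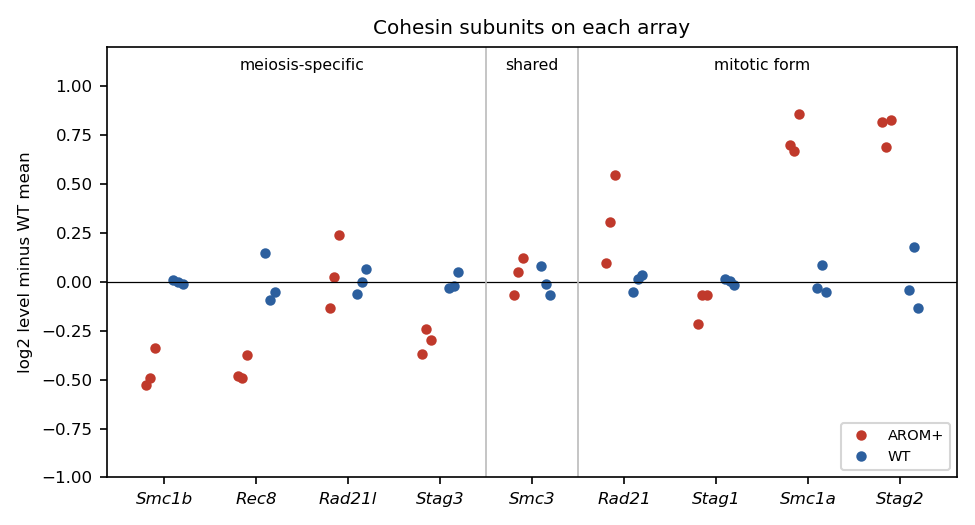
Each point is 1 array's log2 level of a cohesin subunit minus that gene's WT mean, AROM+ left of WT, 3 arrays each. AROM+ points lie below all WT points for Smc1b, Rec8 and Stag3, overlap them for Rad21l and Smc3, and lie above them for Smc1a and Stag2; Rad21 and Stag1 are also separate but were not called.

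Of the 6 synaptonemal complex genes 3 fell, against 31.4% of all features. All 6 differences were negative, as were 66.2% of those of all features. Syce2, a protein of the central element, was at 3.43, 3.54 and 3.55 on the AROM+ arrays, against 3.87, 4.0 and 4.02 on the WT arrays. The lowest WT value exceeded the highest AROM+ value (-0.45 ± 0.09 SE, limma adjusted p = 0.00948). The Syce2 call was lost with quantile normalization (limma adjusted p = 0.0625). Syce1, another central element protein, was at 3.52, 3.75 and 3.77 on the AROM+ arrays, against 3.98, 4.25 and 3.93 on the WT arrays (-0.38 ± 0.13, limma adjusted p = 0.0448). The Syce1 call was lost when any 1 array was left out (adjusted p 0.0588 to 0.116), and with quantile normalization (-0.16, limma adjusted p = 0.21). Sycp3, which forms the lateral element, fell by 0.30 on the log2 scale (limma adjusted p = 0.028). Its second probe gave -0.18 and was not called (0.181, adjusted over all probes). The Sycp3 call was lost without any 1 array but AROM+ 3 (adjusted p 0.0644 to 0.0913), and with quantile normalization (-0.09, limma adjusted p = 0.383). Sycp1, the transverse filament, had a difference of -0.19, Sycp2 of the lateral element -0.09 and Tex12 of the central element -0.04, none of them called. Sycp2 and Tex12 lay above the median of all features (-0.19), and Tex12 was at 0.11 with quantile normalization.

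Hormad1, an axis protein that promotes break formation and monitors synapsis, was at 2.06, 1.76 and 2.30 on the AROM+ arrays, against 2.53, 2.36 and 2.60 on the WT arrays. The highest AROM+ value lay just under the lowest WT value (-0.45 ± 0.15 SE, limma adjusted p = 0.0482). Its second probe gave -0.46 ± 0.10 and was called (0.0127, adjusted over all probes). The call of the first was lost without any 1 array but AROM+ 3 (adjusted p 0.0586 to 0.139), and with quantile normalization (-0.26, limma adjusted p = 0.228). Hormad2, its paralogue, was not called (-0.22 ± 0.11), nor was Trip13, the ATPase that removes HORMA proteins from synapsed axes (0.16 ± 0.15).

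Of the 9 genes of break repair and strand exchange, 3 fell (33.3%), near the 31.4% of all features. Psmc3ip, which encodes HOP2, a helper of strand invasion by DMC1, fell by 0.37 on the log2 scale, with 3.46, 3.52 and 3.60 on the AROM+ arrays, against 3.89, 3.90 and 3.90 on the WT arrays (limma adjusted p = 0.0141). It missed the threshold without WT 1 or WT 3 (adjusted p 0.051 and 0.0506), and with quantile normalization (0.147). Brca2, which acts in strand exchange, fell by 0.37 (limma adjusted p = 0.0303), and Tex15, required for break repair in mouse spermatocytes, by 0.33 (limma adjusted p = 0.0437). Brca2 lost its call without AROM+ 1, AROM+ 3, WT 1 or WT 3 (adjusted p 0.0646 to 0.104), and Tex15 without any 1 array but AROM+ 3 (0.0853 to 0.123). Brca2 and Tex15 also lost their calls with quantile normalization (limma adjusted p = 0.131 and 0.249).

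Dmc1, the meiotic recombinase, was not called, with -0.44, -0.21 and -0.02 on the AROM+ arrays, against -0.24, -0.17 and -0.17 on the WT arrays. The WT values lie inside the AROM+ range, and the 95% interval of the difference was -0.32 to 0.26. Rad51c, a gene of homologous repair, was at 4.89, 5.09 and 4.87 on the AROM+ arrays, against 4.97, 5.73 and 4.81 on the WT arrays. The groups overlapped and WT 2 stood apart (-0.22 ± 0.24, not called). Spata22, a partner of MEIOB on single-stranded DNA, had the widest WT spread of the 44, with -2.15, -2.20 and -1.70 on the AROM+ arrays, against -3.23, -1.56 and -2.09 on the WT arrays (0.28 ± 0.41, not called). Brca1 (-0.20), H2afx, the histone phosphorylated around breaks (-0.04), and Atm, the break-sensing kinase (0.12), were not called either.

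Of the 7 crossover genes 3 fell (42.9%), against 31.4% of all features. Hfm1, a helicase needed for crossover formation, was at -0.50, -0.32 and -0.15 on the AROM+ arrays, against 0.44, 0.18 and 0.41 on the WT arrays. Its groups were clearly separate, with AROM+ signal at 63.0% of WT (-0.67 ± 0.13 SE, limma adjusted p = 0.00873). Mlh3, which acts in the resolution of crossovers, was at -0.46, -0.47 and -0.67 on the AROM+ arrays, against -0.02, -0.22 and 0.04 on the WT arrays (-0.47 ± 0.11, limma adjusted p = 0.0169). It missed the threshold without WT 1 or WT 3 (adjusted p 0.06 and 0.0621), and with spike-in scaling (0.0602). Msh4, which stabilises crossover intermediates as a dimer with MSH5, was at 0.42, 0.56 and 0.66 on the AROM+ arrays, against 0.88, 0.84 and 0.94 on the WT arrays (-0.34 ± 0.10, limma adjusted p = 0.0285). Its second probe gave -0.50 ± 0.09, and the call of the first was lost without AROM+ 1, AROM+ 2, WT 1 or WT 3 (adjusted p 0.0657 to 0.0937). With quantile normalization Msh4 was not called either (-0.25, limma adjusted p = 0.0839).

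Msh5, the partner of Msh4, went the other way on its dimmer probe. The brighter probe, near the 3′ end of the transcript, was at -0.97, -0.89 and -0.46 on the AROM+ arrays, against -0.98, -0.93 and -1.15 on the WT arrays, which overlap (0.25 ± 0.15, 0.221 adjusted over all probes). The dimmer probe, further 5′ in its own transcript record, was at -1.03, -1.12 and -1.02 on the AROM+ arrays, against -1.61, -1.54 and -1.47 on the WT arrays. Those groups were separate (0.49 ± 0.09, limma adjusted p = 0.00835, here over all probes). Both Msh5 sequences are printed above. The 2 probes are annotated to different transcript records, and whether the dimmer one also reads a neighbouring transcript was not tested. Tex11, a crossover factor and the one gene of the 44 on chromosome X, had a difference of 0.08 ± 0.17 on the probe used and -0.35 ± 0.13 on its other probe, neither called. Rnf212, which marks future crossover sites (-0.17), and Exo1, a nuclease (0.07), were not called.

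Of the 6 genes of cell cycle, transcription and translation 2 fell (33.3%), near the 31.4% of all features. Ccna1, the germ cell cyclin A required for mouse spermatocytes to divide, was at 2.05, 2.27 and 2.09 on the AROM+ arrays, against 2.78, 2.82 and 2.87 on the WT arrays. The gap between the groups exceeded the range within either, and AROM+ signal was 62.1% of WT (-0.69 ± 0.10 SE, limma adjusted p = 0.00457). Boll, an RNA-binding protein of the DAZ family, was at 0.27, 0.30 and 0.21 on the AROM+ arrays, against 0.92, 0.88 and 1.03 on the WT arrays. Both groups were tight, with AROM+ signal at 62.3% of WT (-0.68 ± 0.09 SE, limma adjusted p = 0.00395).

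Mybl1, the transcription factor A-MYB that drives many pachytene genes in the mouse, had the largest difference among genes not called. It was at -3.80, -3.36 and -3.68 on the AROM+ arrays, against -3.24, -3.31 and -2.79 on the WT arrays; the groups did not overlap (-0.50 ± 0.18, limma adjusted p = 0.0573). Without AROM+ 2 it was called (-0.63, adjusted p = 0.0419). Ybx2, a germ cell protein that stores mRNA, was at 4.38, 4.66 and 4.67 on the AROM+ arrays, against 4.79, 5.20 and 4.77 on the WT arrays (-0.35, limma adjusted p = 0.0983). Dazl, a translational regulator of germ cells, was not called (0.11 ± 0.13). Cpeb1, which controls poly(A) tails and translation, was at 0.53, 0.70 and 0.80 on the AROM+ arrays, against 0.49, 0.32 and 0.35 on the WT arrays (0.29 ± 0.11, limma adjusted p = 0.0606). It was called higher without AROM+ 1 (0.37, adjusted p = 0.0448).

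Of the other 3 germ cell genes, Mns1, a structural protein of the cilium and sperm tail, was at 3.40, 3.52 and 3.53 on the AROM+ arrays, against 3.82, 3.81 and 3.80 on the WT arrays, and fell (-0.33 ± 0.08, limma adjusted p = 0.0211). That call was lost without AROM+ 1, WT 1 or WT 3 (adjusted p 0.0571 to 0.0732), and with quantile normalization (-0.11, limma adjusted p = 0.291). Tex14, needed for the bridges between germ cells, was at 0.63, 0.90 and 0.89 on the AROM+ arrays, against 1.17, 1.00 and 1.33 on the WT arrays (-0.36 ± 0.13, limma adjusted p = 0.0566). It was called without WT 2 (-0.44, adjusted p = 0.0425). Tex101, a germ cell surface protein, was not called (-0.07 ± 0.10).

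**Figure D3:**
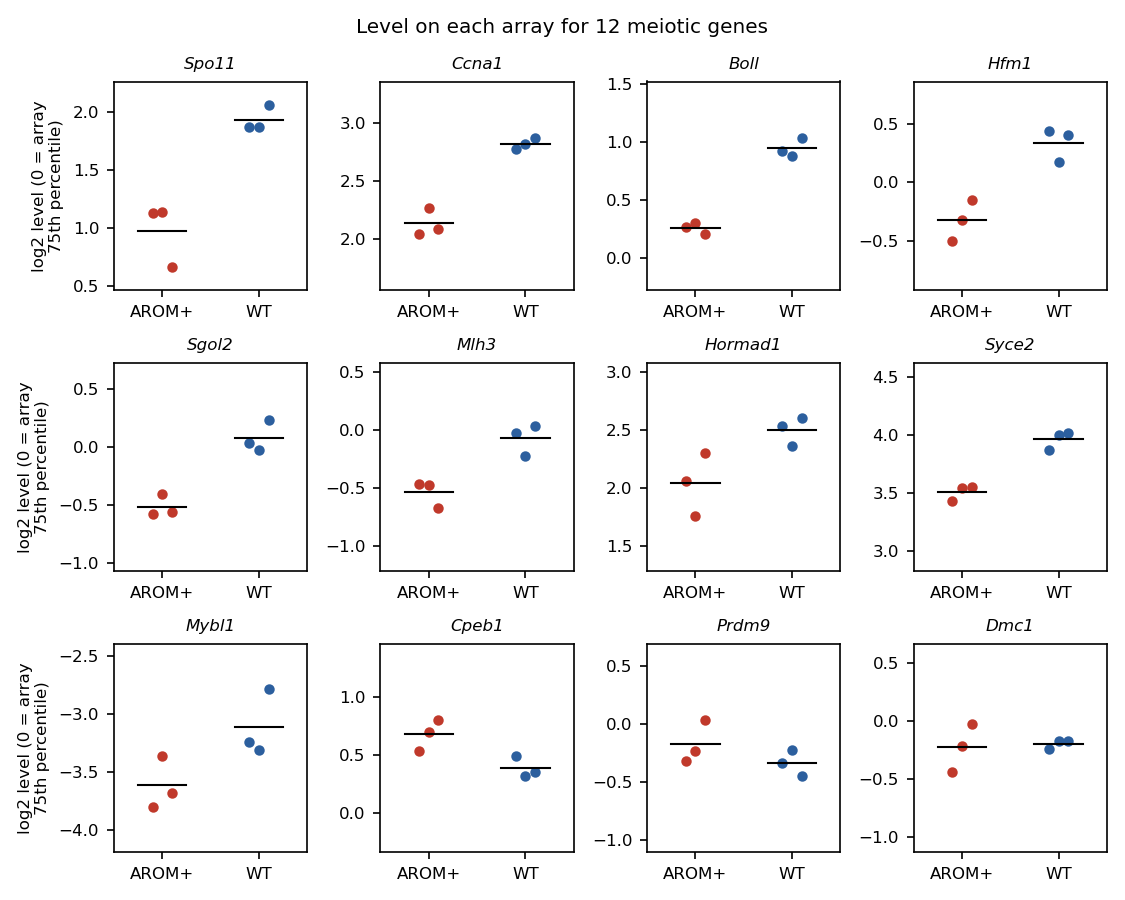
Log2 level of 12 meiotic genes on each array (points; 0 is the array's 75th percentile) with group means as lines, 3 AROM+ arrays left of 3 WT arrays, each panel with its own axis range. Spo11, Ccna1, Boll, Hfm1, Sgol2, Mlh3, Hormad1 and Syce2 are the 8 largest falls; Mybl1 and Cpeb1 are separate between groups but not called, and Prdm9 and Dmc1 overlap.

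The falls held unevenly across arrays and settings. Spo11, Ccna1, Boll, Hfm1, Sgol2 and Smc1b were called lower under all 19 other settings tried, and no called gene changed sign under any of them. Leaving out WT 1 or WT 3 left 8 of the 44 called, or 18.2%, against 18.9% and 17.2% of all features, and leaving out AROM+ 1 left 10, or 22.7%, against 22.5%. With quantile normalization 8 were called (18.2%), against 21.4% of all features, and with scaling to the spike-in probes 10 (22.7%), against 22.4%. With the replicate number as a block 11 were called, when 24.6% of all features were. Under these 6 settings the share of meiotic genes called lower was near that of all features. Brca2, Mei1, Mns1, Msh4, Stag3, Syce1, Sycp3 and Tex15 lost their calls both with spike-in scaling and with the block.

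**Figure D4:**
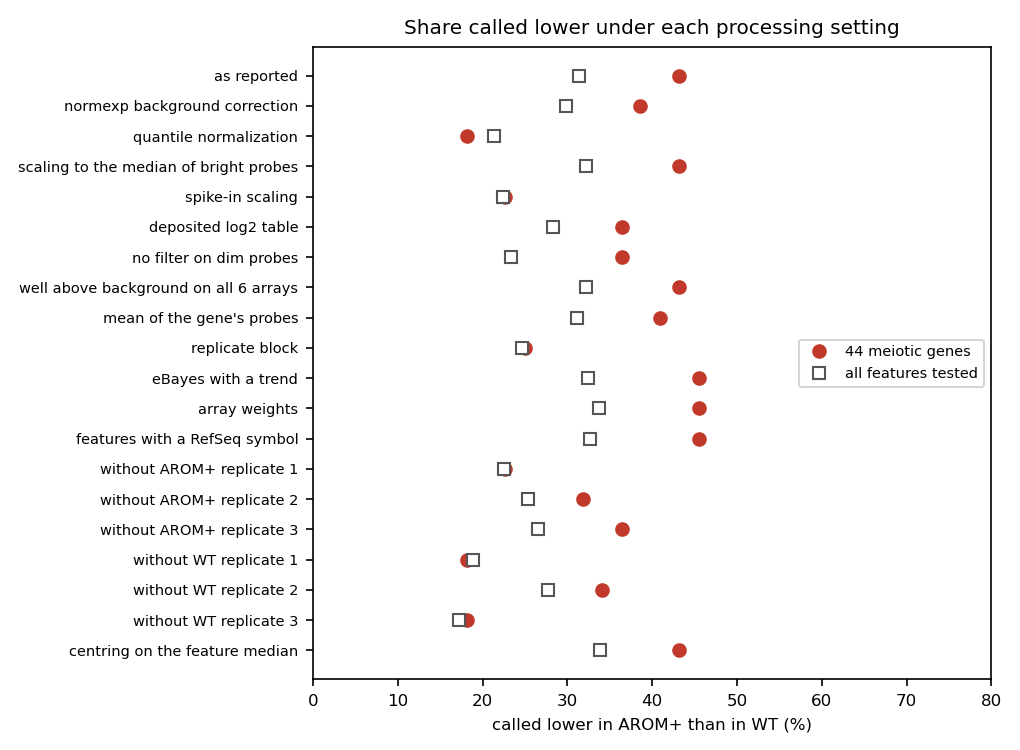
Share of the 44 meiotic genes (filled circles) and of all features tested (open squares) called lower in AROM+ than in WT, in percent, for the values as reported and 19 other settings. The circle is at 43.2% and the square at 31.4% as reported, and they lie close together with quantile normalization, spike-in scaling, the replicate block, and without AROM+ 1, WT 1 or WT 3.

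A wider list of 56 other meiosis genes, 52 of them measured, had 19 called lower (36.5%) and 4 higher (7.69%). The median difference was -0.20. The lower share and the median were near the 31.4% and -0.19 of all features, of which 14.5% were called higher. In the entry, chromatin and division group 7 of 12 fell. Plk1, a kinase of meiotic exit from prophase, fell by 0.77 on the log2 scale (limma adjusted p = 0.00353), and Ccnb2, a cyclin of the divisions, by 0.52 (limma adjusted p = 0.00693). Among telomere attachment genes 3 of 5 fell: Ccdc79 (TERB1), which links telomeres to the nuclear envelope, by 0.66, Sun1, the envelope protein that anchors them, by 0.35, and Ccdc155 (KASH5), its partner, by 0.34. Of 17 further repair genes 6 fell, with Mus81, a nuclease of a second crossover pathway, and Blm, a helicase, each lower by 0.46. The higher one, Pms2, a MutL mismatch repair protein, had a difference of 0.34. Of 9 checkpoint genes, Rad9b, a paralogue in the 9-1-1 clamp, fell by 0.46 and Chek2, a checkpoint kinase, was higher by 0.48. The Sun1 and Chek2 calls were each lost in 7 of 19 other settings, 4 of them the removal of AROM+ 1, AROM+ 2, WT 1 or WT 3, and the Blm call was lost without WT 3 (adjusted p = 0.0525). Pms2 was called only without AROM+ 1 and Ccdc155 only without AROM+ 3 when single arrays were left out, with adjusted p up to 0.105 for Pms2 and 0.092 for Ccdc155 otherwise. A second Sun1 probe gave -0.13 and was not called.

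Markers of germ cells in and after meiosis were also lower in AROM+ testes. Pachytene spermatocyte markers fell for 7 of 8 and round spermatid markers for 8 of 8, with medians of -0.41 and -0.49. Elongating spermatid markers fell for 5 of 8 (median -0.41). Of all features 31.4% were called lower, and 39.5% of those above the 75th percentile. The median levels of these lists were 3.32, 2.98 and 4.47, against -1.12 for the spermatogonial list, so the lists differ in signal. The markers of highest signal in each list were Ldhc (-0.17) and Pgk2 (-0.43) for pachytene cells, Acrv1 (-0.35) and Tssk1 (-0.43) for round spermatids, and Prm2 (-0.47) and Prm1 (-0.17) for elongating spermatids. Ldhc, Prm1 and Prm2 among them were not called, Pgk2 lost its call without WT 1 (adjusted p = 0.051), and Acrv1 without AROM+ 1, WT 1 or WT 3 (0.0506 to 0.064). Piwil1, Hspa2 and Ddx4 are in both the pachytene list and the wider meiosis list. Spermatogonial markers were lower for 1 and higher for 2 of 8 (median -0.02, range -0.47 to 1.48). Those of highest signal were Uchl1 at 0.02 and Sohlh1 at -0.03. In this list 1 marker was higher without WT 1 or WT 3, and none was lower without WT 3. The summed linear signal of the pachytene list, in units of each array's 75th percentile, was 73.7 to 80.3 in AROM+ testes, against 99.4 to 101 in WT testes. When 1 array was left out, the pachytene markers called lower were 3 without WT 1, 4 without AROM+ 1, WT 2 or WT 3, and 6 otherwise. The round spermatid markers called lower were then 4 without WT 1 or WT 3, 5 without AROM+ 1, and 7 or 8 otherwise, and the elongating spermatid markers 3 without AROM+ 2 or WT 1 and 4 or 5 otherwise. Of all features, 18.9% were called lower without WT 1, 17.2% without WT 3, 22.5% without AROM+ 1, and 25.4% to 27.7% otherwise. The summed signal for round spermatids was 47.1 to 50.3 in AROM+ testes, against 63.2 to 68.4 in WT testes. For elongating spermatids it was 183 to 192 in AROM+ testes, against 218 to 294 in WT testes.

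Macrophage markers were higher for 7 of 8 (median 2.11) and endothelial markers for 7 of 8 (1.25). Leydig cell markers were higher for 5 of 8 (0.92) and Sertoli cell markers for 2 of 8 (0.19). Of all features 14.5% were called higher, and 9.52% to 13.7% when 1 array was left out. By signal, the leading markers were Csf1r (-0.44) and Ctss (2.31) of macrophages, Kdr (-0.39) and Eng (1.06) of endothelium, Cyp17a1 (-0.42) and Hsd3b1 (1.30) of Leydig cells, and Clu (-0.01) and Amhr2 (0.14) of Sertoli cells. Csf1r and Kdr were called lower, the 1 exception in each of those lists, while Ctss, Eng and Hsd3b1 were called higher. Csf1r lost its call without AROM+ 2, WT 1 or WT 2 (adjusted p 0.0597 to 0.0862) and Eng without AROM+ 1, AROM+ 3, WT 1 or WT 3 (0.0566 to 0.088), while the macrophage count stayed at 7 higher with any 1 array left out and the endothelial count at 6 or 7. The Sertoli cell count was 1 higher without AROM+ 2, AROM+ 3, WT 1 or WT 3. Their summed signals were 28.3 to 44.1 in AROM+ testes, against 10.9 to 14.5 in WT testes, for macrophages, and 2.84 to 3.84 in AROM+ testes, against 2.35 to 2.75 in WT testes, for endothelium. They were 41.8, 50 and 35.2 on the AROM+ arrays, against 28.5, 35.9 and 19.5 on the WT arrays, for Leydig cells, and 41.9 to 56.3 in AROM+ testes, against 41.7 to 50.4 in WT testes, for Sertoli cells. Such a sum weighs the brightest markers most. In WT testes these were Csf1r for macrophages (mean level 2.47) and Kdr for endothelium (0.86), both called lower. Every measured marker was well above background in at least 1 group. The part of these cell types in the values of the meiotic genes was not tested.

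**Figure D5:**
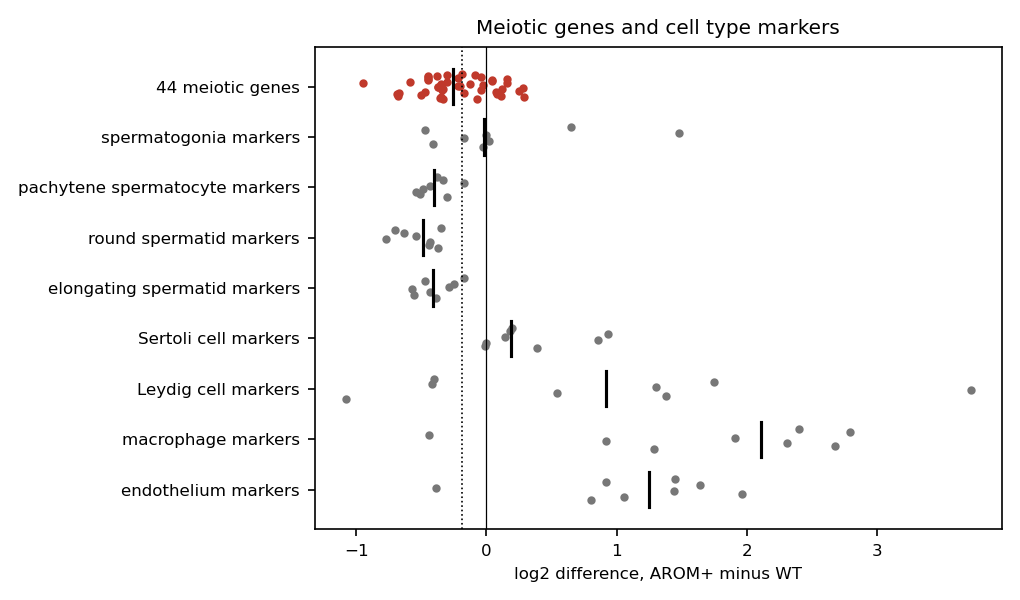
Log2 difference, AROM+ minus WT, of the 44 meiotic genes (top row) and of 8 markers for each of 8 cell types; points are genes, black bars are medians and the dotted line is the median of all features. The meiotic genes (median -0.26) lie between the spermatogonial markers (-0.02) and the pachytene and spermatid markers (-0.41 to -0.49). Macrophage, endothelial and Leydig cell medians are 0.92 or more. The lists also differ in signal, with median levels of -1.12 for spermatogonia and 3.32 for pachytene cells.

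Promoters were read for 38 of the 44 genes from RefSeq (GRCm38.p6) as the 250 bases before the transcript start. Those of 4 of the largest falls are printed 5′ to 3′ on the gene's strand, with matches to the searched motifs in capitals.
Ccna1 promoter, chr3:55055056-55055305, minus strand: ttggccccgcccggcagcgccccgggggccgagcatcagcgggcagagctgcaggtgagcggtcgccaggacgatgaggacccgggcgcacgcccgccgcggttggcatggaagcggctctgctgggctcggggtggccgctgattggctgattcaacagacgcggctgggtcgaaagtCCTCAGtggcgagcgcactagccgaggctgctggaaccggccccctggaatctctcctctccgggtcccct
Boll promoter, chr1:55363754-55364003, minus strand: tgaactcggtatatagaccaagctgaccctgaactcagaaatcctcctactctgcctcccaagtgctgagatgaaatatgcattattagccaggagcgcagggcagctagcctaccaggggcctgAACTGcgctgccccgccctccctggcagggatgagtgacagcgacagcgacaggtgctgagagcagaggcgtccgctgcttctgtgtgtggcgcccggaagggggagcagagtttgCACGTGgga
Hfm1 promoter, chr5:106925891-106926140, minus strand: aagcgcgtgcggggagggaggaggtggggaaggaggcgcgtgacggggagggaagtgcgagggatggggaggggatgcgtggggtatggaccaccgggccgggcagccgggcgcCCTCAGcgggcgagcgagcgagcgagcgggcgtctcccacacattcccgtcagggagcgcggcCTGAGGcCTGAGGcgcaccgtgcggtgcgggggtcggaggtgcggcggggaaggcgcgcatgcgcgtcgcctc
Sgol2 (Sgo2a) promoter, chr1:57985090-57985339, plus strand: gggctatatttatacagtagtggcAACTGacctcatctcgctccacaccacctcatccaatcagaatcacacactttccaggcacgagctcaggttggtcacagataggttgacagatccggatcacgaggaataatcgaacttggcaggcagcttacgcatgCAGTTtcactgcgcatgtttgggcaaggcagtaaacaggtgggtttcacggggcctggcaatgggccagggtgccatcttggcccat

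The motifs searched, on both strands, were AACTG and AACGG (cores bound by the MYB family), CACGTG (the E-box), CCTCAG (part of a motif reported for STRA8) and TTCGCGC (E2F type). AACTG or AACGG was in 19 of the 38 promoters, against 48.8% of all 27025 promoters of the table; counted singly, AACTG was in 26.3%, against 39.1%, and AACGG in 23.7%, against 14.8%. CACGTG was in 6 of the 38 promoters (15.8%), against 6.05% of all, CCTCAG in 11 (28.9%), against 22.2%, and TTCGCGC in 3 (7.89%), against 1.29%. The median number of CpG dinucleotides was 16.5 per window, against 6 in all promoters, and the GC content 59.6%, against 52.0%. The motif AACGG contains this dinucleotide, as do CACGTG and TTCGCGC, and the part of base composition in the shares of these motifs was not tested. Among the printed windows, Boll has 1 AACTG and 1 CACGTG, and Sgol2 has 2 AACTG, 1 of them on the reverse strand. Hfm1 has 3 CCTCAG, 2 of them on the reverse strand (CTGAGG), and Ccna1 has 1 CCTCAG. A match describes the letters and not a binding site.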

How the data were processed

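One-colour Agilent arrays of 3 AROM+ and 3 WT testes were used. The deposited files hold processed intensity values (background-subtracted, per the file headers, Feature Extraction 10.7.3.1; the submitters' processing notes name 10.10), and the authors also deposited a table of log2 values of the same arrays, used as an alternative. No saturated spot was found, and 76.6% to 80.6% of spots were well above background; with 3 arrays a group, their number limits the precision. All 6 arrays were on 1 slide, each group in a row of its own, so row and group cannot be told apart. Control and outlier spots were left out. Log2 intensities minus each array's 75th percentile were tested with limma 3.58.1 (R 4.3.3) for 28917 features, the brightest probe per gene name, well above background on all 3 arrays of a group; the test was tested on simulated data. Genes given on every array were the 8 largest falls among genes called, the 3 largest differences not called, the brightest gene of each role, and Msh5, whose probes differ in their calls. Given by difference were the other members and, by rule, the 2 called genes of smallest p in each role of the wider list (Smc1a and Stag2 also on every array) and the 2 markers of highest mean in each marker list. Nipbl, Pds5a, Dmc1, Psmc3ip, Cpeb1, Spata22, Rad21, Stag1, Pms2 and Ccdc155 were added after their values were seen. The members and lists were chosen with earlier results of these data known.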

Additional observations from a re-analysis of the deposited data

How the results depend on the processing

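The count of meiotic genes called lower, 19 as reported, was 8 with quantile normalization and 10 with spike-in scaling, and ranged from 8 to 16 when 1 array was left out; under the other settings without a block it was 16 to 20. The cause was not tested. The count called higher, 0 as reported, was 1 with quantile normalization (Cpeb1), with the probes of a gene averaged (Msh5) and with a trend in eBayes (Cpeb1), and 0 to 1 when 1 array was left out. The median difference of the 44 genes was -0.12 with quantile normalization, when that of all features was -0.09. Of the 52 other meiosis genes measured, 12 were called lower with quantile normalization and 9 with spike-in scaling, against 19. The count was 9 to 15 when 1 array was left out. Of all features, 21.4%, 22.4% and 17.2% to 27.7% were then called lower, in that order, against 31.4%. Called higher were 2 of the 52 with spike-in scaling, against 4, and 2 to 5 when 1 array was left out. There were 6 with quantile normalization, the deposited log2 table, array weights or features with a RefSeq symbol. Of all features, 9.42% were called higher with spike-in scaling and 9.52% to 13.7% when 1 array was left out. Under those 4 settings 15.1% to 19.5% were, against 14.5%. With the replicate number as a block 11 meiotic genes were called lower, when 24.6% of all features were. Deviations of same-numbered arrays from their group means correlated at 0.05, -0.17 and 0.05. No array correlated best with its own number, so the numbers were not taken to pair the testes. Centring each array on the median over the features tested was chosen after seeing the data and gave 19 (43.2%). Under it 33.9% of all features were lower and their median difference was -0.22, so the shift over all features remained. No direction reversed among the genes called. The dimmest of the 44 genes, such as Mei4 and Rad21l, lie nearest to background, where a difference is least precisely compared.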
